A study of Mus musculus with 4 samples.

Results

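IGF2BP2 and YTHDC1, a pair of proteins that recognise m6A-marked RNA, were compared at the places where both had a peak in mouse bone marrow cells. The 2763 pairs described here were selected on overlap: an IGF2BP2 peak and a YTHDC1 peak that share at least 1 bp. They hold 2723 of 7069 IGF2BP2 peaks (38.5%) and 2740 of 9963 YTHDC1 peaks (27.5%), out of 19866 peaks in the 3 peak lists of the series. Each pair was then ordered by the pileup, the height of the stacked fragments that the authors give at each summit. The ratio of IGF2BP2 to YTHDC1 pileup was divided by the median ratio of all pairs, 0.933, and is called the scaled ratio. A scaled ratio of at least 2 was called a lean to IGF2BP2, and one of 0.5 or less a lean to YTHDC1.

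The series holds 4 libraries of lin- c-Kit+ bone marrow cells, which the labels call LIC: 1 immunoprecipitate each for IGF2BP2, YTHDF2 and YTHDC1, and 1 input. Cells were grown in IMDM with serum, IL3, IL6 and SCF, crosslinked with UV at 254 nm (120 mJ per cm2, 3 exposures), and sonicated. The antibodies came from 1 supplier. Strain, age, oncogene and the number of animals are not given in the labels used here, and that the cells are leukaemic comes from the series title alone. With 1 library per reader nothing below has a replicate check, and no test between readers was possible. Intervals of single ratios cover counting error only. Those of shares and medians treat pairs or peaks as independent. Many pairs share a gene, so these intervals can be too narrow. Of the progenitor genes looked up, Myb had peaks of both readers and 3 pairs, Kit and Ctsg had a YTHDC1 peak each, and Cd34 and Mpo had 0 peaks in either list. None of 17 lymphoid markers had a peak in either list. Of 15 erythroid and megakaryocyte markers 1 had peaks in both lists but no pair, and of 12 stromal and endothelial markers 1 had an IGF2BP2 peak, 3 had YTHDC1 peaks, and 1 (Pdgfrb) had a pair. In such bulk samples fewer cells of a type and less RNA per cell cannot be told apart.

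m6A is a methyl mark on adenosines inside RNA, set by a nuclear enzyme complex mostly within a short sequence with GGAC as its common core. IGF2BP2 binds RNA through KH domains, has a liking for CA-rich elements, and is known in the cytoplasm for protecting mRNAs from decay. YTHDC1 carries a YTH domain that holds the methylated base, and it is the family member known from the nucleus, where it acts on splicing, export and chromatin-bound RNA. YTHDF2, the third reader of the series, recruits the deadenylation machinery to marked mRNAs.

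The coding windows with the firmest leans are shown first, because the readers' sides differed in sequence. The 4 genes on each side are among those whose counting interval lay farthest from 1, taken from CDS pairs with summits at most 50 bp apart and a window inside 1 coding exon. Each window reaches 50 nt to either side of the IGF2BP2 summit, read 5′ to 3′ on the strand of the gene from the GENCODE M21 transcript, in GRCm38, with GGAC in capitals. The IGF2BP2 side follows, with pileups of 41 and 4 for Myh9, 74 and 11 for Dctn1, 45 and 6 for Pnisr, and 40 and 6 for Hspa8 (IGF2BP2 first).
Myh9, chr15:77763852-77763952, minus strand, exon 38 of 41: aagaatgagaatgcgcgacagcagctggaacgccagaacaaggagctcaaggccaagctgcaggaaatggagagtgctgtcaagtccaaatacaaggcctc
Dctn1, chr6:83191005-83191105, plus strand, exon 14 of 32: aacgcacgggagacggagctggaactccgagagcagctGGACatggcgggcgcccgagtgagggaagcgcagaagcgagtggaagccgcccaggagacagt
Pnisr, chr4:21862030-21862130, plus strand, exon 6 of 12: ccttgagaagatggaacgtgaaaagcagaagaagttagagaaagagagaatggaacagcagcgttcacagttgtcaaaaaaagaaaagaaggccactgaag
Hspa8, chr9:40804577-40804677, plus strand, exon 8 of 9: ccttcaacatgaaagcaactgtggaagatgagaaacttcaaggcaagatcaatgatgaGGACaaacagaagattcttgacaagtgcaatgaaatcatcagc

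On the YTHDC1 side the pileups were 13 and 81 for Acin1, 13 and 77 for Cep164, 4 and 32 for Kdm5c, and 34 and 141 for Ryr1, again with IGF2BP2 first.
Acin1, chr14:54642845-54642945, minus strand, exon 19 of 19: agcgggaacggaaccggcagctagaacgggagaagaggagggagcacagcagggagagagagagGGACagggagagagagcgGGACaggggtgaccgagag
Cep164, chr9:45782043-45782143, minus strand, exon 14 of 32: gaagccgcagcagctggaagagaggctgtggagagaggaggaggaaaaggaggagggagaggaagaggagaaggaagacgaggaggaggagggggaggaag
Kdm5c, chrX:152272779-152272879, plus strand, exon 26 of 26: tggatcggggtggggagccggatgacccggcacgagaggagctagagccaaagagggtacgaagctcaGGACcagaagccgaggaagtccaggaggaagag
Ryr1, chr7:29083467-29083567, minus strand, exon 36 of 109: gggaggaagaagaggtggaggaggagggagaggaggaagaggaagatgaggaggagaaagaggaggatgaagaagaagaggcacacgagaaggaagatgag

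All 8 windows are rich in purines. Those of the YTHDC1 side were made up of guanine to 42.6% to 53.5%, against 21.8% to 41.6% on the IGF2BP2 side, and the ranges did not overlap. GGAC stood in 2 of the 4 windows on either side. The run GAGGAG stood 5 times in the Cep164 window and 4 times in that of Ryr1 (copies that do not overlap), once each in Acin1 and Kdm5c, and in 0 windows of the IGF2BP2 side. CACA stood in the Pnisr window on the IGF2BP2 side and in those of Acin1 and Ryr1 on the YTHDC1 side.

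Of the 2763 pairs, 485 (17.6%) leaned to IGF2BP2 and 494 (17.9%) to YTHDC1, and 1784 (64.6%) leaned to neither. A lean was called firm where the exact conditional binomial 95% interval of the scaled ratio, taken from the pileups as counts, left out 1. Firm leans numbered 264 to IGF2BP2 (9.55%) and 339 to YTHDC1 (12.3%). These counts follow from the values that define the leans, so they describe the pairs and are not tested. Close to the limits, 81 pairs had a scaled ratio from 1.8 up to 2 and 95 from 2 up to 2.2, while 143 lay above 0.5 up to 0.55 and 96 above 0.45 up to 0.5. The overlap rule itself had few close cases: 10 pairs shared at most 10 bp, with median pileups of 4.5 and 4, and 5 more peak pairs missed each other by at most 10 bp, with medians of 3 and 3.

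The summits of a pair lay close together, at a median distance of 19 bp, and 2182 pairs (79.0%) had them within 50 bp. Median pileups were 9 in both lists over the pairs, with middle ranges of 5 to 17 for IGF2BP2 and 5 to 20 for YTHDC1. IGF2BP2 peaks without a partner had a median pileup of 4 (4346 peaks) and YTHDC1 peaks without one a median of 6 (7223 peaks). Pileups of a pair rose together, with a Spearman correlation of 0.62 over the 2763 pairs, which share genes and local coverage. The scaled ratio ran from 0.112 to 14.5, and its quartiles lay at 0.595 and 1.61. The largest pileups were 199 for IGF2BP2 and 200 for YTHDC1, and whether the values are scaled or capped is not given in the sources used here.

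**Figure D1:**
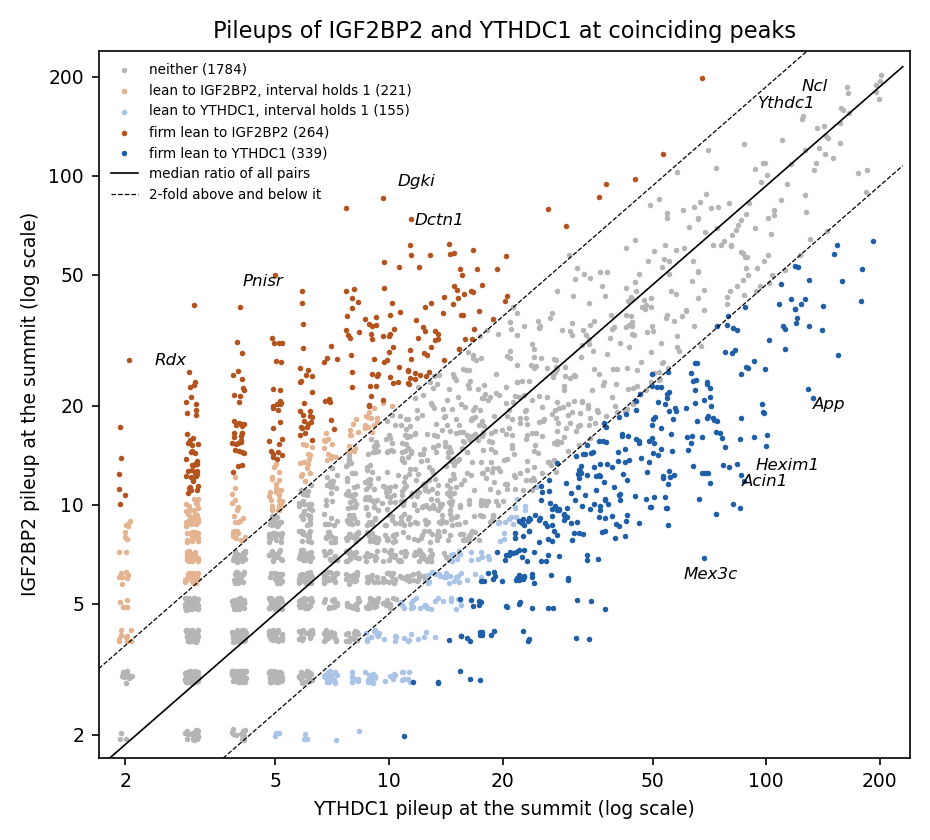
Pileup at the summit in the YTHDC1 list (x, log scale) against that in the IGF2BP2 list (y, log scale) for 2763 pairs, each point a pair moved by a small random amount so that equal pairs can be told apart. The solid line is the median ratio of 0.933 and the dashed lines lie 2-fold on either side; the 264 firm leans to IGF2BP2 sit above at YTHDC1 pileups mostly under 20, and the 339 firm leans to YTHDC1 sit below and reach YTHDC1 pileups of 187.

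Rank within the list is built from the same pileups as the ratio, so that the following overlap is no separate support. The percentile rank of the IGF2BP2 peak exceeded that of its partner by 25 points or more in 549 pairs, of which 401 also leaned to IGF2BP2 by ratio. The YTHDC1 peak was higher by 25 points or more in 247 pairs, of which 193 also leaned to YTHDC1. The rank counts are less even than the 485 and 494 leans by ratio, and the median rank difference over all pairs was 2.41 points.

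The firmest leans to IGF2BP2 among protein-coding genes lay in the CDS in 7 of 12 genes, in an intron in 1 and in a 3' UTR in 1, and in 3 the summits fell in different regions. Beside this, 40.5% of all pairs lay in the CDS, and 136 of the 264 firm leans to IGF2BP2 did. Dgki (ENSMUSG00000038665.15), a diacylglycerol kinase, had an IGF2BP2 pileup of 88 and a YTHDC1 pileup of 10 in an intron at chr6:37206726-37207653, a scaled ratio of 9.43 (4.89 to 20.3). Myh9 (ENSMUSG00000022443.17), the nonmuscle myosin heavy chain, had 81 and 8 at chr15:77767083-77767735 in the CDS, a scaled ratio of 10.8 (5.25 to 26), but those summits lay 368 bp apart. The same IGF2BP2 peak also paired with a YTHDC1 peak of pileup 61 whose summit lay 69 bp away, at a scaled ratio of 1.42 (1.01 to 2.02), which is no lean. Where the Myh9 summits lay 7 bp apart, at the window printed above, the scaled ratio was 11 (3.98 to 42.2). Dgki held no YTHDF2 peak at that site, and the Myh9 sites held YTHDF2 peaks with pileups of 51 and 14.

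Dctn1 (ENSMUSG00000031865.16), the large dynactin subunit, followed with 74 and 11, a scaled ratio of 7.21 (3.8 to 15.1). Pnisr, a nuclear protein with serine and arginine repeats, had 45 and 6 and a scaled ratio of 8.04 (3.42 to 23.0). Luc7l2, a U1 snRNP-associated splicing factor, had 57 and 10 at a site that counted as 3' UTR, a scaled ratio of 6.11 (3.09 to 13.4). All 3 sites carried a YTHDF2 peak too. The other genes of the 12 were Hspa8, Prkcd, Nop56, Card9, Rdx, and Gm21887 on X with Gm47283 on Y. Gm21887 and Gm47283 are uncertain, since near-identical copies can share reads, and reads of Hspa8 can come from pseudogenes. With summits within 50 bp, 8 of the 12 genes were named again, and Smarca4, Eif3a, Ywhag and Smarca2 entered.

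Of the 12 genes with the firmest leans to YTHDC1, 7 had their site in an intron: Arid1b, Lrmda, Gbe1, App, Snx4, Riok3 and Pld1. Beside this, 21.2% of all pairs lay in introns, and 109 of the 339 firm leans to YTHDC1 did. Mex3c, an RNA-binding ubiquitin ligase, led with an IGF2BP2 pileup of 7 and a YTHDC1 pileup of 67 in the CDS, or 8.93-fold toward YTHDC1 (4.11 to 23.1). Arid1b (ENSMUSG00000069729.14), a subunit of the BAF chromatin remodeller, had 10 and 84 at chr17:5011652-5011772, 7.84-fold toward YTHDC1 (4.06 to 16.9). App (ENSMUSG00000022892.11), the amyloid precursor gene, had 22 and 126 at chr16:85161524-85161949, 5.35-fold (3.38 to 8.83). These sites showed high YTHDC1 pileups against IGF2BP2 pileups that were themselves above the list median of 5.

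Hexim1 (ENSMUSG00000048878.6), an inhibitor of the elongation kinase P-TEFb, had 12 and 87 in its 5' UTR at chr11:103116343-103116534, 6.77-fold toward YTHDC1 (3.68 to 13.6). Maz, a zinc finger factor of GC-rich promoters, had the same pileups in its 3' UTR at chr7:127022531-127022701. Acin1, a splicing-associated protein of the exon junction, had 13 and 81, 5.82-fold (3.22 to 11.4). Cep164, a centriole appendage protein, had 13 and 77, 5.53-fold (3.05 to 10.9). None of Mex3c, Hexim1, App, Acin1 and Cep164 held a YTHDF2 peak at the site, while Arid1b and Maz each had one with a pileup of 13. With summits within 50 bp, 9 of the 12 genes were named again, and Gm45837, Pdgfrb and Focad entered, all with intronic sites.

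Among the 8 protein-coding genes with the highest summed pileup at a scaled ratio near 1, the readers' pileups were alike by choice. Rnf220, a ubiquitin ligase, had 171 for IGF2BP2 and 200 for YTHDC1 in an intron, and Ncl, the nucleolar protein nucleolin, 176 and 160 in the CDS. Ythdc1, the gene of one of the readers, had 154 and 154 in its CDS at chr5:86816699-86817362, a scaled ratio of 1.07 (0.851 to 1.35), and a YTHDF2 pileup of 81. The chaperone genes Hsp90ab1 (141 and 135) and Hsp90aa1 (145 and 128) and a further Myh9 site (141 and 138) were as even, with Nrros at 112 and 149 and Gm10800 at 164 and 153. Gm10800 lay on a local background of 23.8, and its fold over background was only 6.66 for IGF2BP2 and 4.63 for YTHDC1. Ncl lay on a background of 10.6. A second Ythdc1 pair in the 3' UTR was weak, with pileups of 5 and 4. Igf2bp2 had 1 IGF2BP2 peak, 0 YTHDC1 peaks and no pair, and Ythdf2 had 0 peaks in either list. Of the genes in the series title, Mfsd2a had 1 peak of each reader that did not coincide, and Prmt6 had 2 IGF2BP2 peaks and 0 YTHDC1 peaks, so neither gene has a pair.

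Abundant noncoding RNAs, chosen after their values were seen, were also even. Rn7s1 and Rn7s2, the RNA of the signal recognition particle, had 191 and 189, and 184 and 193 (IGF2BP2 first), and Rn7sk, the RNA that holds P-TEFb, had 136 and 147. The local backgrounds there, computed from the pileup and fold of the IGF2BP2 list, were 24.4, 24.4 and 14.5. Malat1, a nuclear long noncoding RNA, held both kinds of site in 1 broad IGF2BP2 peak of pileup 191: its YTHDC1 partners had 170 and 70, giving scaled ratios of 1.20 (0.974 to 1.49) and 2.92 (2.21 to 3.90). The latter summits lay 623 bp apart. Neat1, the scaffold of paraspeckles, leaned to YTHDC1 with 14 and 46, 3.07-fold (1.66 to 6.04).

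By region of the gene, introns and 5' UTRs leaned to YTHDC1 and coding exons lay near the middle of all pairs. A pair was given a region where both summits lay in the same one. In introns 31 of 587 pairs leaned firmly to IGF2BP2 (5.28%, exact 95% interval 3.62 to 7.41) and 109 to YTHDC1 (18.6%, 15.5 to 22.0). In 5' UTRs the counts were 3 and 22 of 95 pairs (3.16%, 0.656 to 8.95, and 23.2%, 15.1 to 32.9). Both intervals for YTHDC1 lay above the 12.3% of all pairs, and both for IGF2BP2 below its 9.55%. In the CDS 136 of 1118 pairs leaned firmly to IGF2BP2 (12.2%, 10.3 to 14.2) and 106 to YTHDC1 (9.48%, 7.83 to 11.4), and in 3' UTRs 25 and 26 of 210. Of 338 intergenic pairs 33 and 49 leaned firmly, and of pairs in other exons 5 and 11. In the 290 pairs whose summits fell in different regions 31 and 16 did.

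The median log2 scaled ratio was -0.47 in 5' UTRs (-0.68 to -0.23), -0.22 in introns (-0.32 to -0.16), -0.11 in 3' UTRs (-0.22 to 0.10) and 0.10 in the CDS, where pileups of equal size gave exactly that value and both ends of its interval. Median rank differences, IGF2BP2 minus YTHDC1 in percentile points, were 4.48 in the CDS (2.80 to 5.54), 1.36 in 3' UTRs (-1.77 to 2.98), -1.12 in introns (-2.18 to 0.52) and -3.10 in 5' UTRs (-5.04 to 0.07), beside 2.41 over all pairs. The intervals of the latter 3 regions hold 0, and that of 3' UTRs also holds 2.41. Medians of the ratio are set against the median of all pairs. Scaled instead by the ratio of the local backgrounds, every log2 value rises by 0.33: the intron median became 0.11, that of 3' UTRs 0.22, and those of other exons and of intergenic pairs 0.24 each, so that their signs turned. The 5' UTR median was then -0.14, with an interval that held 0 (-0.35 to 0.10), and the CDS median 0.43. Under that scaling 400 pairs leaned firmly to IGF2BP2 and 221 to YTHDC1, 64.4% of firm leans in place of 43.8%, and 731 and 315 leaned at all. A scale factor shifts all regions alike and leaves their order, but it changes the number of pairs on each side.

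The 3' UTR value rests on how regions were ranked. Here a summit counted as 3' UTR where any transcript of the gene had one; with CDS ranked first, 71 pairs remained and their median log2 scaled ratio was -0.90. At a pileup of at least 10 in both lists it was 0.21. For 5' UTRs, Hexim1, Atp2a2 (10 and 53) and Rab5a (18 and 72) led toward YTHDC1. Toward IGF2BP2 only Safb (42 and 15), Tec (16 and 4) and Rab44 (14 and 5) leaned firmly. Among sites that counted as 3' UTR, leans to IGF2BP2 were led by Luc7l2, Safb2 (34 and 6) and Rbm39 (45 and 10). Those to YTHDC1 were led by Maz, Nisch (20 and 96) and Ier2 (15 and 77). Any site named as 3' UTR, here or elsewhere, can be coding in another transcript, and which of them are was not looked up.

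**Figure D2:**
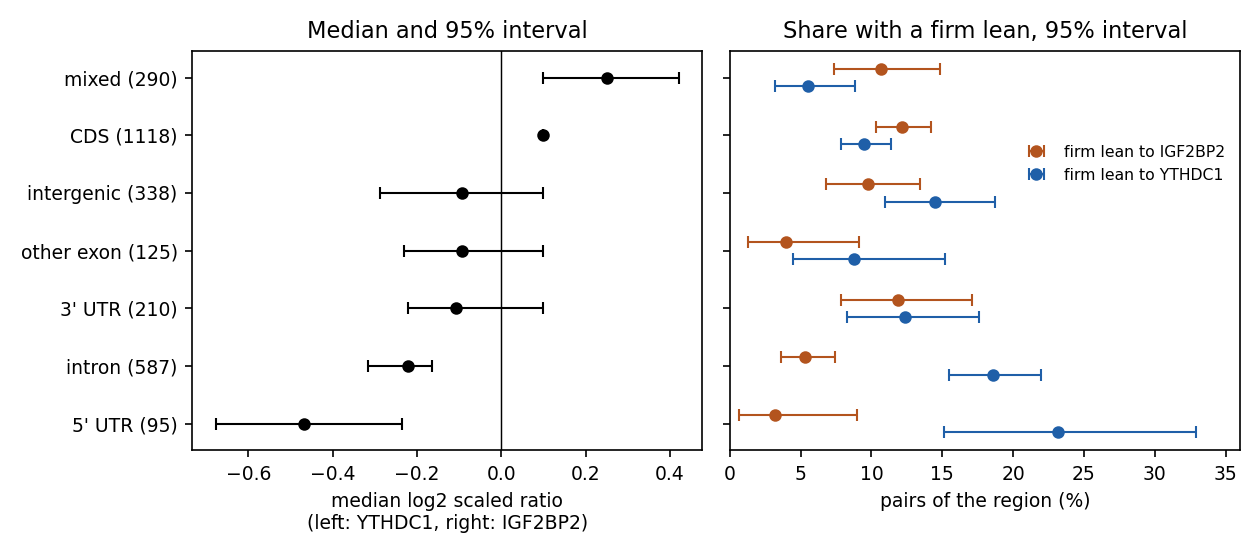
Left, median log2 scaled ratio of the pairs in each region (x) with its order-statistic 95% interval; right, percent of the region's pairs that leaned firmly to either reader with exact binomial 95% intervals, and the number of pairs of each region in brackets. Introns (109 against 31 firm leans) and 5' UTRs (22 against 3) stand on the YTHDC1 side, and the CDS median of 0.10 has no visible bar because both bounds equal it.

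The share of peaks with a partner also differed by region, and more so for YTHDC1. Of YTHDC1 peaks in the CDS 45.9% had an IGF2BP2 partner (1180 of 2570, exact 95% interval 44.0 to 47.9), against 19.4% in introns (725 of 3742, 18.1 to 20.7) and 15.3% in 5' UTRs (115 of 752, 12.8 to 18.1). Of IGF2BP2 peaks 38.7% in the CDS, 36.7% in introns and 51.4% in 5' UTRs (109 of 212, 44.5 to 58.3) had a YTHDC1 partner. The intervals for YTHDC1 in these 3 regions leave the CDS apart from the others. Partnerless YTHDC1 peaks were intronic in 41.8% of cases and partnered ones in 26.5%. For IGF2BP2 these shares were 26.2% and 24.2%.

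Within introns the firm leans differed in how far they lay from exons. The 104 firm YTHDC1 pairs in introns of protein-coding genes had a median distance of 4162 bp to the nearest annotated exon, and 5 (4.81%, exact 95% interval 1.58 to 10.9) lay within 200 bp of one. The 30 firm IGF2BP2 pairs had a median of 402.5 bp, and 15 (50%, 31.3 to 68.7) lay within 200 bp. Over all 543 intronic pairs 25.2% did. Few of either kind lay within 2000 bp of the gene start, 1 in each set. Repeats were not examined at these sites, since no genome sequence was used here.

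Within the coding sequence position along the CDS was alike and exon length was not. Firm IGF2BP2 pairs had their median at 41.7% of the CDS and firm YTHDC1 pairs at 45.5%, against 42.4% for all 1111 pairs placed. The exon that held the summit had a median length of 193.5 bp (middle range 139 to 263) for 134 firm IGF2BP2 pairs and 428.5 bp (196 to 1056) for 106 firm YTHDC1 pairs. The median over all was 203 bp. Within 200 nt of the stop codon lay 9 and 15 of these pairs (6.72%, 3.12 to 12.4, and 14.2%, 8.14 to 22.3), intervals that overlap.

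Base composition separated the sides more clearly than GGAC did. Windows of that length inside exons could be read for 1725 pairs. In the 193 of firm IGF2BP2 pairs adenine made up 31.9% ± 7.98 (SD over windows) and guanine 33.4% ± 4.67, and in the 168 of firm YTHDC1 pairs 23.8% ± 10.1 and 40.3% ± 8.19. The median G + C share was 52.5% against 60.4%. The purine sum was nearly equal, 65.2% against 64.1%, so the sides differed in which purine they held. Within the CDS alone adenine was 31.9% against 25.4% and guanine 33.9% against 41.8%. Base shares spread widely, and the SDs of the sides overlap.

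GGAC stood in 45.1% of firm IGF2BP2 windows (87, exact 95% interval 37.9 to 52.4) and in 41.7% of firm YTHDC1 windows (70, 34.1 to 49.5), against 41.6% and 41.1% of all exonic windows of the respective lists, with intervals that overlap. After the windows had been read, CACA and GAGGAG were searched as well, on the strand of the gene, in the same windows. CACA stood in 23.8% of firm IGF2BP2 windows (18 to 30.5) and 10.7% of firm YTHDC1 windows (6.47 to 16.4), against 15.1% of pairs without a lean, 22.7% of all IGF2BP2 and 15% of all YTHDC1 windows. GAGGAG stood in 32.1% (25.6 to 39.2) and 52.4% (44.5 to 60.1), against 40.7% of pairs without a lean, so that the firm IGF2BP2 share lay below that of pairs without a lean and the firm YTHDC1 share above it. The shares over all windows of the lists were lower, 26.7% for IGF2BP2 and 30.4% for YTHDC1. In the CDS alone GAGGAG stood in 31.9% of firm IGF2BP2 and 61.3% of firm YTHDC1 windows. Over all CDS windows of the lists it stood in 29.2% for IGF2BP2 and 36.9% for YTHDC1. The end of one of these motifs can overlap the start of another, as in GGACACA. The matches are letters in a window and not mapped binding sites.

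The scaled ratio fell with the G + C share across exonic pairs. The median log2 scaled ratio was 0.32 (0.23 to 0.51) in 437 windows under 50% G + C, 0.10 in 756 windows of 50% to 60%, and -0.22 (-0.32 to -0.13) in 532 windows of 60% or more. Firm leans were 69 to IGF2BP2 against 15 to YTHDC1 in the lowest class, and 35 against 86 in the highest. Within the CDS the medians were 0.51, 0.10 and -0.16. As a description over 1725 pairs that share genes and libraries, the Spearman correlation of the log2 scaled ratio was 0.27 with adenine, -0.30 with guanine and -0.24 with G + C. The libraries were amplified over 20 cycles, and whether G + C recovery differed between them was not tested.

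**Figure D3:**
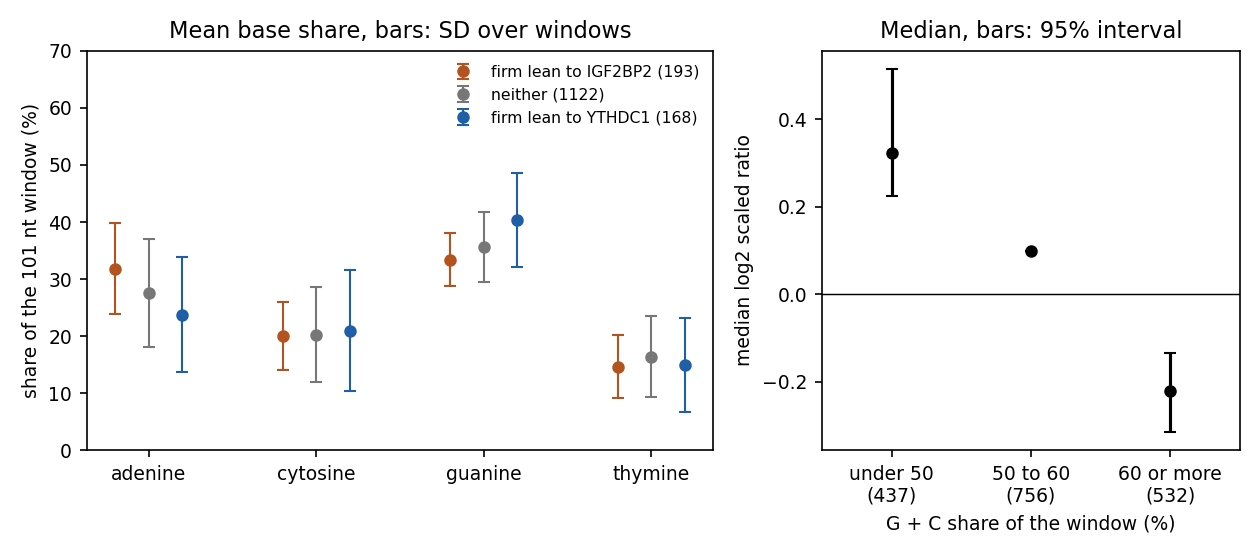
Left, mean share of each base in exonic windows around the IGF2BP2 summit (y, percent) for firm IGF2BP2 pairs, pairs without a lean and firm YTHDC1 pairs, with bars for the SD over windows; right, median log2 scaled ratio by G + C share of the window with 95% intervals. Adenine falls from 31.9% to 23.8% and guanine rises from 33.4% to 40.3% between the sides, and the median falls from 0.32 to -0.22 with G + C.

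Strength and local background moved with the lean too. By the sum of both pileups the median log2 scaled ratio was 0.10 in 602 pairs of at most 10, 0.00 in 670 pairs of 21 to 40, -0.47 in 386 pairs of 41 to 80 (-0.68 to -0.25) and -0.50 in 250 pairs of 81 or more (-0.73 to -0.31). Firm leans to IGF2BP2 had a median sum of 32 and those to YTHDC1 one of 50. The local background, which both lists take from the same track up to a factor, was at least 0.5 in 3.41% of firm IGF2BP2 pairs and in 41.9% of firm YTHDC1 pairs (9 and 142 pairs), against 14.4% of all. In 280 pairs with a background from 0.5 to 2 the median log2 scaled ratio was -0.77, with 8 firm leans to IGF2BP2 and 114 to YTHDC1. In the 2364 pairs below 0.5, scaled by their own median, firm leans were 228 and 226, and the medians were -0.26 in introns, -0.33 in 5' UTRs and 0.09 in the CDS. The interval in 5' UTRs then reached 0.14. The part of the background in the other leans was not tested.

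YTHDF2, whose list did not enter the choice of pairs, had its peaks more often at pairs that leaned to IGF2BP2 than at those that leaned to YTHDC1. A YTHDF2 peak overlapped both peaks in 185 of 264 firm IGF2BP2 pairs (70.1%, exact 95% interval 64.2 to 75.5) and in 155 of 339 firm YTHDC1 pairs (45.7%, 40.3 to 51.2). Of all pairs 45.1% had one, but their median summed pileup was 19, against 32 and 50 for the firm sides. The intervals of the sides do not overlap. At a summed pileup of 21 to 40 the shares were 73.3% (64.3 to 81.1) and 36.7% (27.7 to 46.5), and at 41 to 80 they were 78.8% (68.2 to 87.1) and 44.7% (36 to 53.6). In the CDS alone they were 83.8% (76.5 to 89.6) and 60.4% (50.4 to 69.7), and in introns 58.1% (39.1 to 75.5) and 33.9% (25.1 to 43.6). The difference thus had the same direction in these classes, except at sums of 11 to 20, where both shares were 50% (58 and 12 pairs). Pairs without a lean lay between the sides at sums of 21 to 40 (52.3%, 47.1 to 57.5) and of 41 to 80 (72.4%, 65.1 to 78.9). The latter interval overlaps that of the IGF2BP2 side and lies above that of the YTHDC1 side. At sums of 11 to 20 they had 36.1%, below both sides. They did not lie between the sides at sums of 81 or more either: 94.8% of 154 had a YTHDF2 peak, against 80% of 10 and 58.1% of 86.

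**Figure D4:**
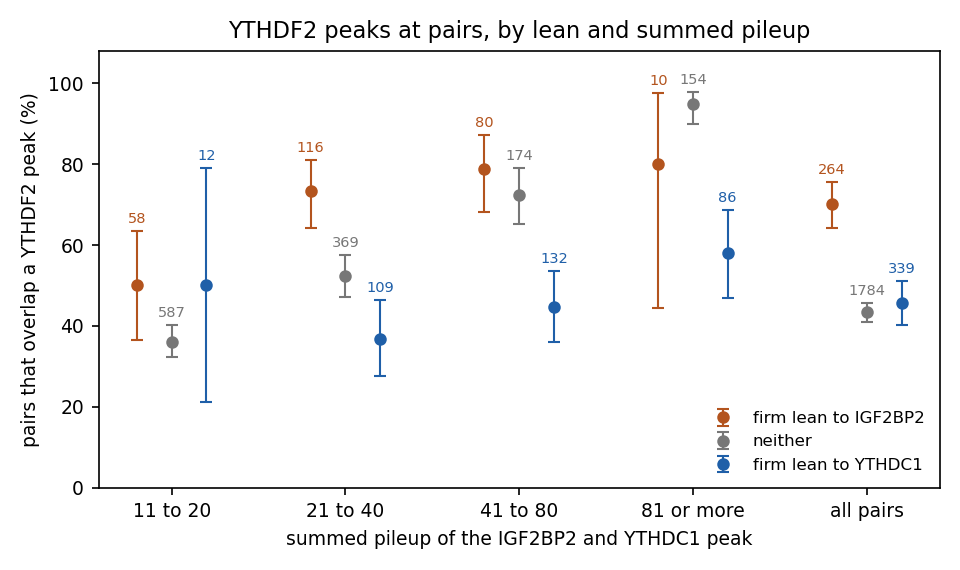
Percent of pairs that overlap a YTHDF2 peak (y) by summed pileup of the IGF2BP2 and YTHDC1 peaks (x) for firm leans to either reader and for pairs without a lean, with exact binomial 95% intervals and the number of pairs above each bar. From 21 to 80 the IGF2BP2 side stands at 73.3% and 78.8% and the YTHDC1 side at 36.7% and 44.7%.

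The pairs formed with YTHDF2 give values to set beside these. Treated the same way, 21.8% of the 2763 IGF2BP2 and YTHDC1 pairs leaned firmly to one side, against 9.35% of 1861 IGF2BP2 and YTHDF2 pairs and 14.4% of 1630 YTHDF2 and YTHDC1 pairs. With both pileups at least 10 these shares were 31.3% of 921, 18.1% of 507 and 27.4% of 522 pairs. The SD of the log2 ratio was then 1.01, 0.758 and 0.930, and its interquartile range 1.28, 1.18 and 1.41. By the interquartile range the pairs of YTHDF2 and YTHDC1 were thus the widest, and by the SD those of IGF2BP2 and YTHDC1. The lists share readers and sites, so these are values side by side.

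Where a gene held several firm leans, these mostly went to the same reader. Of 1394 protein-coding genes with a pair, 454 had at least 2 and 188 at least 3, and Myh9 had the most with 15. Firm leans numbered 2 or more in 62 genes: all to IGF2BP2 in 34, all to YTHDC1 in 14, and both ways in 14. Pairs of 1 gene share its transcripts and are no replicates of each other. Eif3a, a subunit of the initiation factor that joins the small ribosomal subunit, had 5 firm leans to IGF2BP2 and none to YTHDC1 in 9 pairs, all in the CDS, with scaled ratios from 1.20 to 5.76. Baz2b, a bromodomain protein, had 5 of 7, and Cep128, a centriolar protein, and Ankrd11, a chromatin regulator, 4 of 7 each. Dock10, an exchange factor for small GTPases, had 4 firm leans to YTHDC1 in 6 pairs, all in introns and 1 of them a lean to IGF2BP2 that was not firm, with firm pileups of 5 and 20, 10 and 53, 56 and 147, and 5 and 26 (IGF2BP2 first). These 5 genes were named after their values were seen.

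In 13 genes with at least 3 pairs firm leans went both ways, and the sites are described here with no test. Myh9 leaned firmly to IGF2BP2 in 6 pairs, with pileups from 41 and 4 to 91 and 39, and to YTHDC1 in 1 pair, chr15:77812934-77813137, with 29 and 78 (2.51-fold toward YTHDC1, 1.62 to 3.99). The 6 include the pair of 81 and 8 with summits 368 bp apart, whose IGF2BP2 peak showed no lean against its nearer YTHDC1 partner. Akap13, a scaffold that binds protein kinase A, had 4 CDS sites toward IGF2BP2 (16 and 6, 16 and 4, 19 and 6, 24 and 11) and 1 toward YTHDC1 (11 and 32). Chd4, the ATPase of the NuRD complex, had an intronic site of 35 and 9 and a CDS site of 3 and 17. Smarca2, a BAF ATPase, had a CDS site of 63 and 14 and an intronic one of 15 and 64. Sart3, a splicing factor that recycles snRNPs, had an intronic site of 13 and 4 and a CDS site of 19 and 70. Lrmda had 3 intronic sites toward YTHDC1 and 1 toward IGF2BP2 (34 and 8). Pcnt, Nin, Baz1a, Plec, Srcap, Col19a1 and Atp8b4 were the other genes. The lists carry no strand, so reads of overlapping or antisense transcripts cannot be told apart from those of the gene named.

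**Figure D5:**
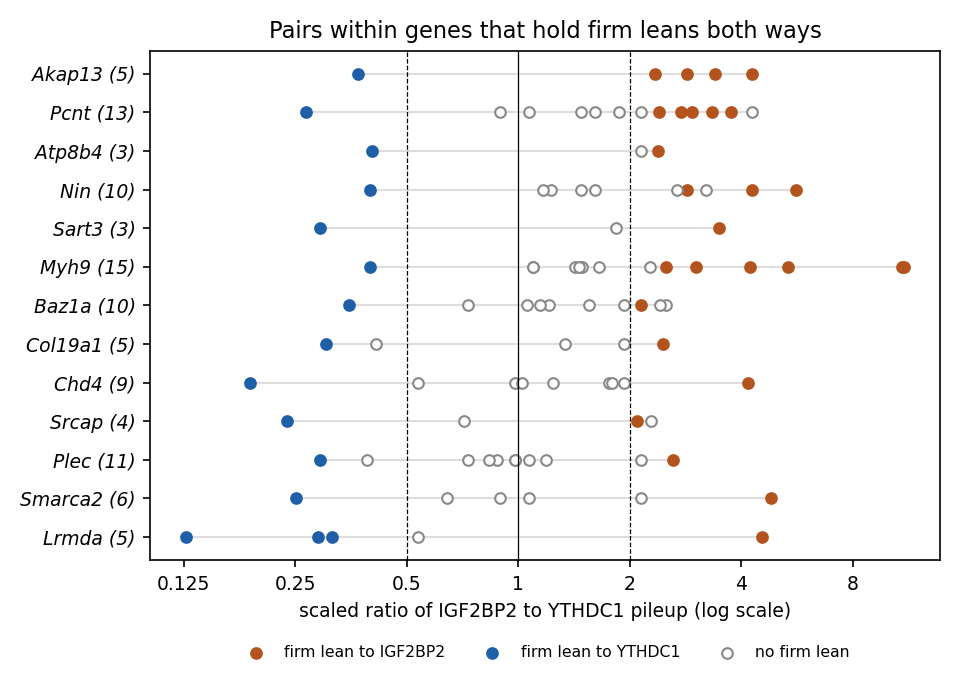
Scaled ratio of each pair (x, log scale) in the 13 genes with at least 3 pairs and firm leans both ways, ordered by the gene's median, with the number of pairs in brackets. Filled points are firm leans, open points are not, and the dashed lines at 0.5 and 2 are the limits of a lean; Myh9 spans 0.398 to 11 and Lrmda 0.127 to 4.55.

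By gene group, 22 lists were looked at, and their medians stand beside the 9.55% and 12.3% of firm leans over all pairs. Centrosome, coiled-coil and nuclear envelope genes lay farthest toward IGF2BP2 among lists with at least 10 pairs: 14 of 49 pairs in 11 genes leaned firmly to it and 2 to YTHDC1, with a median log2 scaled ratio of 0.91 (0.57 to 1.42) and 0.97 over the 31 CDS pairs. The 14 came from 6 genes, with 5 of them from Pcnt and 3 from Nin. Cep152, a centriole duplication factor, had 23 and 3, but its summits lay 211 bp apart, in the CDS and in an intron. Pcnt, the scaffold pericentrin, had 16 for YTHDC1 and 4 for IGF2BP2 at its 1 opposite site. Cell cycle genes had 4 firm leans to IGF2BP2 and 0 to YTHDC1 in 30 pairs, with a median of 0.31 (-0.26 to 0.84). Cdk11b, a cyclin-dependent kinase of splicing and mitosis, had 34 and 8. The interval of that list holds 0.

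Signalling and surface receptor genes had 1 firm lean to IGF2BP2 and 7 to YTHDC1 in 25 pairs, with a median of -0.36 (-1.06 to 0.32), and 14 of the pairs were intronic. The 7 came from 3 genes, and 4 of them from Dock10 alone. Vav1, an exchange factor of blood cells, had 15 and 4, Arhgap15, a Rac inhibitor, 48 and 158, and Dock10 10 and 53. Cytoplasmic ribosomal protein genes had 2 and 5 firm leans in 33 pairs (median -0.39, -0.64 to 0.23), from Rpl4 with 37 and 12 to Rps2 with 35 and 78. Reads of these genes can come from pseudogenes. hnRNP genes had 1 and 5 firm leans in 42 pairs, and Hnrnpu alone had both, with 42 and 14 at one CDS site and 61 and 150 at another. Their median was 0.04 (-0.59 to 0.17).

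SR proteins and splicing factors went both ways, with 13 firm leans to IGF2BP2 in 10 genes and 6 to YTHDC1 in 4 genes among 56 pairs (median 0.23, -0.28 to 0.73). Chromatin genes had 15 and 11 of 98 pairs (0.00, -0.32 to 0.25), led by Chd1 (20 and 3) and Arid1b. Cytoskeletal genes had 10 and 9 of 70 (0.13), translation factors 7 and 7 of 46 (-0.12), chaperones 3 and 3 of 45 (0.10), and RNA helicases 6 and 3 of 31 (0.10). The 10 cytoskeletal leans to IGF2BP2 came from 5 genes, 6 of them from Myh9, and the 9 to YTHDC1 from 8 genes. The 7 leans of translation factors to IGF2BP2 came from 3 genes, 5 of them from Eif3a, and those to YTHDC1 from 7 genes. The shares of splicing, chromatin, cytoskeletal, translation and helicase genes toward IGF2BP2 all lay above the 9.55% of all pairs. Those of centrosome and cell cycle genes did too, so an excess over that share is not particular to any of these lists. The shares of chaperones lay below both backgrounds. In CDS pairs alone the median took the other sign for splicing factors (-0.38, 26 pairs), hnRNP genes (-0.35, 25 pairs), translation factors (0.17, 28 pairs) and chaperones (-0.03, 26 pairs). On few CDS pairs it also did so for signalling genes (0.87, 4 pairs), stem and leukaemia factors (-0.17, 4 pairs) and glycolysis genes (0.02, 6 pairs). The same held for myeloid granule genes (0.08, 2 pairs) and choline genes (0.84, 1 pair). Glycolysis genes had 1 and 2 of 18 pairs (-0.14). Pkm, pyruvate kinase, had 37 and 9 with summits 97 bp apart, in the CDS and in an intron. A CDS pair of Pkm with summits 10 bp apart was even, at 26 and 29. Pfkfb3, which makes the activator of phosphofructokinase, had 28 and 76.

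Transcription factors of stem cells and leukaemia had only 12 pairs in 8 genes, with 3 and 4 firm leans. Myb, a regulator of progenitor growth, had 86 for IGF2BP2 and 35 for YTHDC1 in its CDS at chr10:21156252-21156553, a scaled ratio of 2.63 (1.76 to 4.02), with a YTHDF2 pileup of 44. Elf1, an ETS factor, had 115 and 55 in an intron (2.24, 1.61 to 3.15). Erg, another ETS factor, had 53 and 185 in its 3' UTR at chr16:95359794-95359938, 3.26-fold toward YTHDC1 (2.39 to 4.51), on a local background of 11.9. Zfpm1, a partner of GATA factors, had 3 and 15. The 12 pairs of m6A writers, erasers and readers held no firm lean, with a median of -0.11 (-0.77 to 0.18): Zc3h13, of the writer complex, had 21 and 39, and Fto, a demethylase, 4 and 3. The 7 pairs of decay and deadenylation genes held none either.

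Small lists give values only. Choline and lysophosphatidylcholine genes had 3 pairs: Pld1, phospholipase D, 4.96-fold toward YTHDC1 in an intron, Slc44a2, a choline transporter, with 8 and 23, and Pcyt1a, of phosphatidylcholine synthesis, with 5 and 3. Myeloid granule genes had 3 pairs, among them Ncf1, of the NADPH oxidase, with 17 and 7, and Hp, haptoglobin, with 2 and 5. Long noncoding RNAs had 7 pairs in 3 genes. Protein arginine methyltransferases had peaks of 3 genes for IGF2BP2 and 1 for YTHDC1, with 0 pairs. The 2763 pairs as a whole lay in 1 gene in 2413 cases, between genes in 338, and across 2 genes or a gene edge in 12; 71 touched a pseudogene, and in 57 several genes were equally ranked under a summit.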

How the data were processed

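Peaks of 3 RNA immunoprecipitates and their shared input, 1 library each, were used as deposited. Per the submitters' processing notes, reads were handled with bcl2fastq 2.17, Trim Galore and HISAT2 on GRCm38; the peak caller is not given in the sources used here. Per the file headers, the authors give for each peak a pileup (signal, the fragments over the summit) and a fold enrichment, the ratio of pileup to local background. The deposited −log10 p and −log10 q values come from the authors' peak caller, and the deposited score is 10 times −log10 q. Whether pileups were scaled, and the depth of the libraries, is unknown.

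Peaks that overlapped by at least 1 bp formed pairs. Both summits were placed in GENCODE M21, ranking 5' UTR and 3' UTR before CDS, other exon and intron. The local background was computed as (pileup + 1) / fold - 1. At the 114 pairs with summits on the same base the backgrounds of the lists kept a ratio of 0.741, within 1% in all 114. Ratios have exact conditional binomial intervals, shares exact Clopper-Pearson intervals and medians order-statistic intervals, all at 95%. Those of ratios cover counting error only, and fragments may not be independent molecules. Those of shares and medians treat pairs or peaks as independent, which those of 1 gene may not be. Python 3.11.15, numpy 2.4.6, pandas 2.3.3, scipy 1.17.1 and matplotlib 3.10.9 were used, and the calculations were tested on simulated data.

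The members and gene lists were chosen with earlier results of these data known. Named genes are the 12 protein-coding genes per side whose interval lay farthest from 1, the 8 with the highest summed pileup at a scaled ratio near 1, up to 4 examples per list, 3 per side and region, genes with firm leans both ways, and the genes of the title and of the readers. Alternatives changed overlap, pairing, summit distance, q, pileup, the scale, the ranking of regions and the motif.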

Additional observations from a re-analysis of the deposited data

How the results depend on the processing

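Of 204 recomputed values 151 stayed within the 95% interval of the reported value (for counts of pairs, within 1.5 times). The cause of larger moves was not tested unless the construction shows it. The sign turned in 12, of which 1 had a reported interval that left out 0 and 11 had one that held 0. Subsets were scaled by their own median ratio. The former was the intron median (log2 scaled ratio, as are all medians here), from -0.22 to 0.11 when scaled by the backgrounds. The other 11 were medians or rank differences in 3' UTRs, other exons and intergenic pairs, including 3' UTR medians of 0.04 with summits within 50 bp and 0.03 at −log10 q of at least 5, and other exon medians of 0.06 at pileups of at least 10 and 0.07 by the YTHDC1 summit. That scaling adds 0.33 throughout, giving 731 leans to IGF2BP2 and 315 to YTHDC1 (firm 400 and 221) and medians of 0.43 in the CDS, -0.14 in 5' UTRs, 0.22 in 3' UTRs, 0.24 in other exons, 0.24 between genes and 0.58 in mixed pairs. Firm YTHDC1 pairs then had YTHDF2 peaks in 39.8% and GGAC in 50.9%. With pileups of at least 10 in both lists (921 pairs), 122 and 173 leaned (116 and 172 firmly), the medians were 0.18 in the CDS, -0.46 in introns and 0.21 in 3' UTRs, YTHDF2 peaks stood at 78.4% of firm IGF2BP2 pairs and 66.5% of pairs without a lean, and GGAC in 53.2% of firm YTHDC1 windows. The CDS median of 0.10 became 0.12 with overlap of 50% of the shorter peak, 0.13 for mutual best pairs, 0.16 with summits within 50 bp, 0.22 at −log10 q of at least 5, 0.047 with pileups under 100, 0.047 with fold in place of pileup and 0.087 at a background under 0.5, a limit set after seeing the data. From the overlap value to that with pileups under 100, the CDS median stayed that of equal pileups. Only the median ratio used as the scale moved there, from 0.933 to 0.923, 0.917, 0.892, 0.857 and 0.968 in that order. By the YTHDC1 summit the intron median was -0.16. Giving coding sequence priority over UTRs, the median was -0.90 in 3' UTRs and 11.4% of YTHDC1 3' UTR peaks had a partner. At −log10 q of at least 5 the shares with a partner were 42.1% (CDS), 39.8% (intron) and 38.9% (3' UTR) for IGF2BP2, and 51.2% (CDS), 23.8% (intron), 29.2% (3' UTR) and 32.9% (intergenic) for YTHDC1. Ranked over the pairs alone, median rank differences were 1.72 in the CDS, -5.03 in introns, -6.89 in 5' UTRs, -2.32 in 3' UTRs, -1.22 in other exons and -1.58 between genes. Pairs without a lean had YTHDF2 peaks in 49.5% at −log10 q of at least 5 and in 38.7% at a background under 0.5. In place of GGAC, and chosen after seeing the data, CACA stood in 23.8% of firm IGF2BP2, 10.7% of firm YTHDC1 and 15.1% of other windows, and GAGGAG in 32.1%, 52.4% and 40.7%. No paired analysis was possible because each reader has 1 library, for which reason no library could be left out either. The alternative without repeats was not run, as no genome sequence was used. Low pileups limit what can be called: none of 602 pairs with a summed pileup of 10 or less reached a firm lean.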

Other observations

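Outside annotated genes, the firmest leans, chosen after their values were seen, included sites with an IGF2BP2 pileup of 15 and a YTHDC1 pileup of 97 on chromosome 4, 36 and 133 on chromosome 1, and, on the other side, 59 and 11 on chromosome 8. None of these 3 sites held a YTHDF2 peak. Among noncoding genes, Snord17, a small nucleolar RNA, had 64 and 126, and 1700109G14Rik had 21 and 131 in an intron.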
